A study of Mus musculus with 2 samples.

Results

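The Hedgehog pathway genes Shh, Ptch1, Smo, Hhip, Gli1, Gli2 and Gli3 and the lung T-box genes Tbx2, Tbx4 and Tbx5 were followed in whole-lung RNA of a knockout (KO) pool and a control pool of mice. These 10 genes of 22072 were chosen by symbol, and the transcript records of each symbol were summed. The KO pool came from mice of the genotype Pdgfb-iCreER / FoxF1 fl/fl, in which a drug-inducible Cre recombinase is driven from the Pdgfb promoter, active in endothelial cells. The control pool came from Foxf1 fl/fl mice, which share the floxed alleles and carry no Cre, so effects of the Cre transgene and of Foxf1 loss cannot be told apart. All mice were on a C57/BL6 background, and lung RNA of multiple mice was combined into 1 library per genotype. The sources used here do not give the age or number of the mice, the time of Cre induction or the part of Foxf1 deleted. No difference below therefore has a replicate check, and no p-value is given.

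In the Hedgehog pathway a secreted ligand binds Patched receptors, which releases the transducer Smoothened from inhibition and activates the GLI transcription factors. In the developing lung the epithelium secretes Sonic hedgehog and the surrounding mesenchyme receives it, and Ptch1, Hhip and Gli1 are themselves induced by the signal. Tbx2, Tbx4 and Tbx5 encode DNA-binding T-box factors of the lung mesenchyme, where Tbx4 and Tbx5 are known for lung bud growth and branching and Tbx2 for repressing cell cycle inhibitors. Foxf1 is a known Hedgehog target in lung mesenchyme.

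The libraries held about 10.5 M reads on transcripts in the KO pool and 13.3 M in the control pool, as estimated from the deposited coverage. Values are FPKM, fragments scaled to transcript length and library size, so that levels can be compared between genes. Intervals are 95% counting intervals from the estimated reads, and they leave out differences between mice and between library preparations. Foxf1, listed as Foxf1a, had 15.7 FPKM in the KO pool and 72.1 FPKM in the control pool, 4.59-fold lower in the KO pool (3.97 to 5.33). Lung identity was plain in both libraries, with the alveolar gene Sftpc at 13800 FPKM in the KO pool and 15900 FPKM in the control pool. Cell cycle genes were higher in the KO pool at 14 of 14, with a median log2 difference of 2.77, and their part in the results below was not tested. In whole-lung RNA, fewer cells of a type and less RNA per cell cannot be told apart.

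All 10 genes were detected in both pools, and their levels fell into a steep order. Tbx2 was the most abundant, at 56.5 FPKM in the KO pool and 72.4 FPKM in the control pool, and Gli2 the least, at 0.79 and 0.593 FPKM in the KO and control pools. By mean level the order ran from Tbx2 through Tbx4, Tbx5, Smo, Ptch1, Hhip, Shh, Gli1 and Gli3 to Gli2. The KO pool kept this order. In the control pool Ptch1 stood above Smo, with overlapping counting intervals, and in the KO pool the intervals of Ptch1 and Hhip overlapped. The intervals of Tbx5 and Smo, of Hhip and Shh, and of Gli3 and Gli2 overlapped in both pools. Overlap alone does not settle the order of these neighbours, and intervals of the ratios between them were not computed. Tbx2 exceeded the level of 93.1% of the 12929 genes with a mean of 1 FPKM or more, and Gli1 that of only 4.06% of them.

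**Figure D1:**
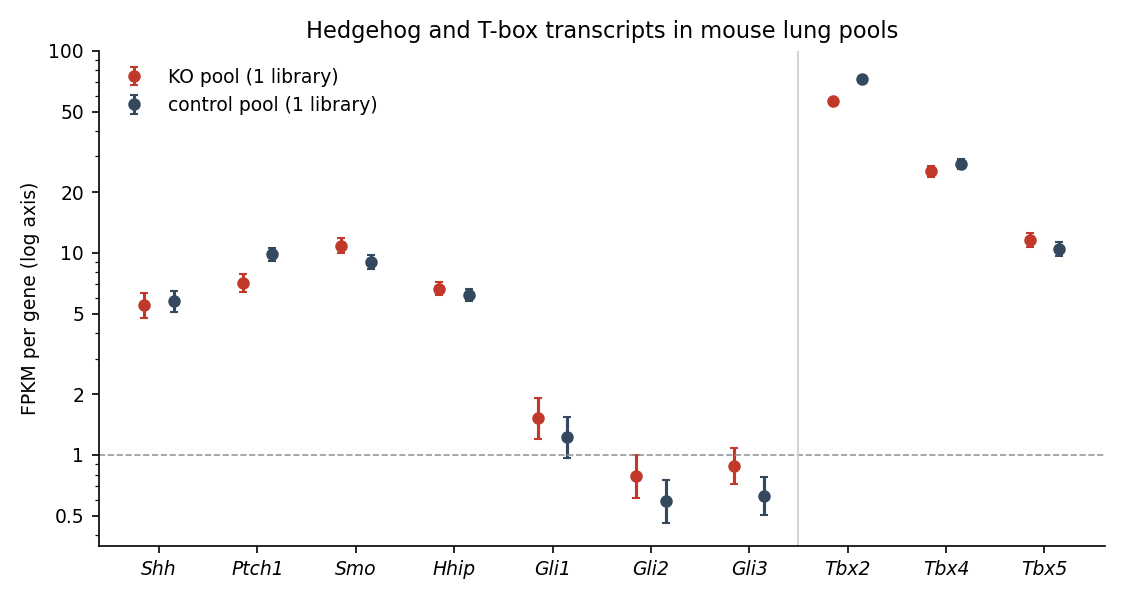
FPKM (vertical log axis) of the 7 Hedgehog genes and the 3 T-box genes, with the KO pool left of the control pool and bars for 95% Poisson counting intervals. Tbx2 and Tbx4 stand highest, and Gli2 and Gli3 lie under the dashed line at 1 FPKM in both pools.

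None of these genes differed by 1.5-fold between the pools. Differences are given as log2(FPKM + 1) of the KO pool minus that of the control pool, a scale that understates the change of low genes, and folds are plain FPKM ratios. Counts of genes at least 1.5-fold apart use the log2(FPKM + 1) scale, so a low gene can pass 1.5-fold as a plain ratio and not be counted. Of the 8 genes over the floor of a mean of 1 FPKM, 0 were at least 1.5-fold higher in the KO pool and 0 at least 1.5-fold lower. Among all 12929 genes over the floor, 9.41% were higher by that fold and 4.63% lower, 14.0% in either direction, so a count of 0 among 8 genes lies near the background. Their log2 differences ran from -0.42 for Ptch1 to 0.24 for Smo, with a median of 0.02 beside 0.05 for all genes. The counting interval of the fold left out equality for Ptch1, Smo and Tbx2 and held it for the other 5. The share of all genes over the floor with such an interval was not computed, so this does not set these genes apart. Gli2 and Gli3 were under the floor and are described by their values.

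**Figure D2:**
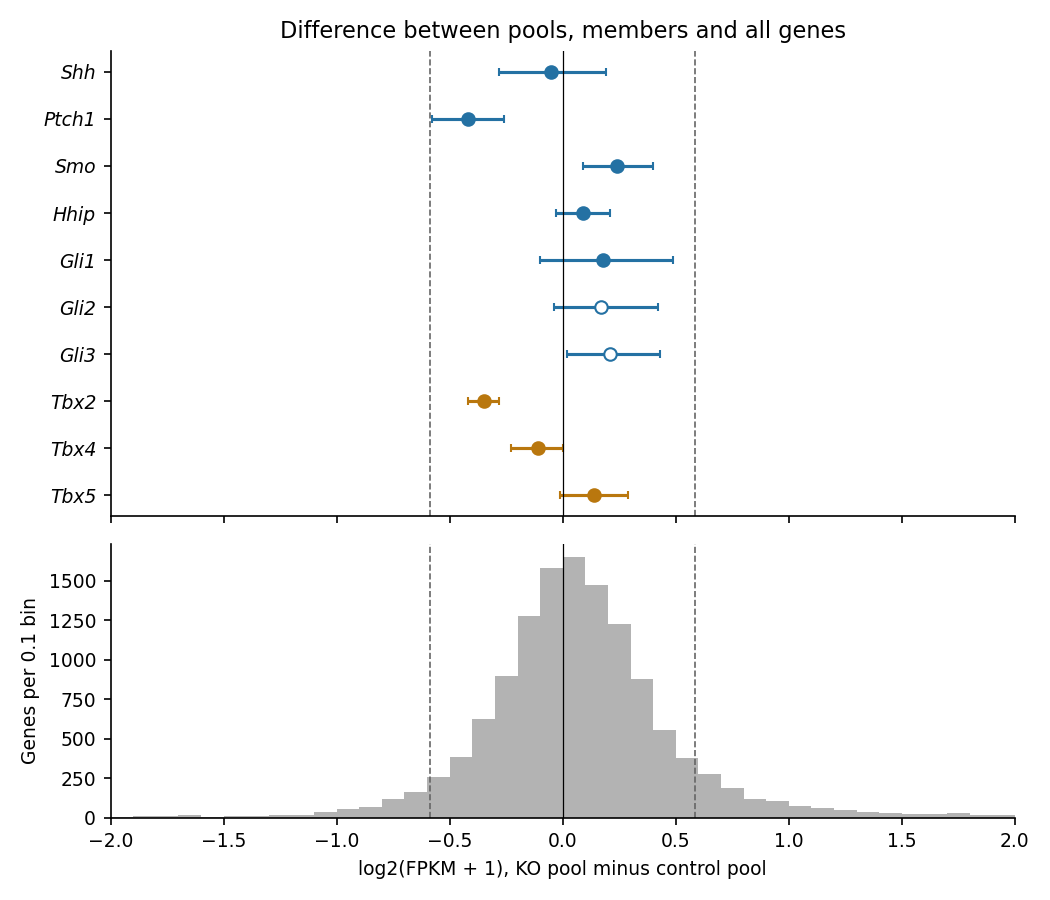
Upper panel, log2 difference of each gene (KO pool minus control pool) with its 95% counting interval, open points marking genes under the floor. Lower panel, the number of the 12929 genes over the floor per bin of the same difference, drawn from -2.0 to 2.0. Genes beyond that range are not drawn. Dashed lines mark 1.5-fold, and every point lies between them.

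Shh, which encodes the main Hedgehog ligand of lung epithelium, was level between the pools. It had 5.52 FPKM in the KO pool and 5.76 FPKM in the control pool, from about 189 and 254 reads, a fold of 0.958 (0.791 to 1.16). Its record lies on chromosome 5 from 28783380 to 28793641 (mm9). The other ligand genes were lower in level, as Dhh had 3.38 FPKM in the KO pool and 2.49 FPKM in the control pool, and Ihh had 0.0667 and 0.181 FPKM in the KO and control pools. Dhh, known from Schwann cells and endothelium, was 1.36-fold higher in the KO pool (1.02 to 1.81). Epithelial markers, the cells known to make Shh, had a median log2 difference of -0.18 over 16 genes. Beside 9.41% of all genes at least 1.5-fold higher and 4.63% lower, 1 marker was higher (Krt18, at 1.53-fold) and 1 lower. The lower one was the club cell gene Scgb1a1, the most abundant of the list, at 22800 FPKM in the KO pool and 35300 FPKM in the control pool. With median ratio or upper quartile scaling 0 were higher and 3 lower, and with housekeeping scaling 0 and 4, at a median of -0.41. The lung epithelial transcription factor gene Nkx2-1 had 84 FPKM in the KO pool and 106 FPKM in the control pool, a gene picked once its values were known.

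Among genes for the release of the ligand, 4 of 6 were over the floor and 1 of them passed 1.5-fold. Scube1, of a family of secreted proteins that carry lipid-modified Hedgehog ligands, was 2.42-fold lower in the KO pool (1.99 to 2.95), at 1.38 FPKM against 3.35 FPKM in the control pool. Scube2, picked once its values were known, had 10.5 FPKM in the KO pool and 14.5 FPKM in the control pool. Scube1 was the lowest of the 32 further pathway genes counted here over the floor.

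Ptch1, which encodes the ligand-binding receptor, showed the lowest difference of the 10 genes. It had 7.1 FPKM in the KO pool and 9.87 FPKM in the control pool, from about 393 and 704 reads. That is 1.39-fold lower in the KO pool (1.22 to 1.57), a difference larger than counting error and smaller than the 1.5-fold threshold. Of the genes over the floor, 8.59% had a lower log2 difference than Ptch1. Its record spans chromosome 13 from 63612841 to 63666828 (mm9).

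Hhip, which encodes a membrane protein that binds and holds back Hedgehog ligands, did not follow Ptch1. It had 6.66 FPKM in the KO pool and 6.19 FPKM in the control pool, from about 777 and 931 reads, a fold of 1.08 (0.978 to 1.19) on chromosome 8 from 82489750 to 82581907 (mm9). The counting intervals of the folds of Ptch1 and Hhip did not overlap. Ptch1 stood at 1.07 times the level of Hhip in the KO pool and 1.59 times in the control pool. The difference of Hhip was negative when the libraries were scaled to housekeeping genes or fibroblast markers (-0.11 and -0.13 on the log2 scale).

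Ptch1 and Hhip are both known targets that limit the signal, and their proximal promoters are shown because these genes differed from each other between the pools. RefSeq start sites of the build GRCm38.p6, with the 250 bases before them, were found for 6 of the 10 genes. The Ptch1 window is chr13:63565736-63565985 and the Hhip window chr8:80058009-80058258, both read 5′ to 3′ on the minus strand, with capitals for GC boxes (GGGCGG on either strand).
Ptch1: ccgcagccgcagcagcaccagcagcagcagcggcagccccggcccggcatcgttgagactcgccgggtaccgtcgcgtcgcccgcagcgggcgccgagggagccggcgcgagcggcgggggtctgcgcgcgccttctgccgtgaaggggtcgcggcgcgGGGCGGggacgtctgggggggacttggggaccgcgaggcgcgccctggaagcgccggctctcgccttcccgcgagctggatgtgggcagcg
Hhip: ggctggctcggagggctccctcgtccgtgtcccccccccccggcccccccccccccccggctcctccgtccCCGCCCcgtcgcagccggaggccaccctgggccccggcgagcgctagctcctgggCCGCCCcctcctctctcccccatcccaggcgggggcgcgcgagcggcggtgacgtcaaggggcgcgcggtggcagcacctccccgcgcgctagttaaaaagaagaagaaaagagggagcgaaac
The Ptch1 window held 1 GC box and the Hhip window 2. At least 1 was found in 5 of the 6 windows and in 32.7% of all 32851 promoter windows of the same length. The GLI motif GACCACCCA, its form with any base at the fifth place (GACCNCCCA), the T-box motif AGGTGTGA and the forkhead motif TAAACA were searched on both strands. None matched in the 6 windows, and 0.225%, 0.868%, 1.12% and 12.0% of all windows held them, in that order, the first form also counting within the relaxed one. The missing match says only that these letters are not in these windows. G and C made up 78.4% of the Ptch1 window and 76% of the Hhip window, against a median of 52.4% over all windows. The other members' windows ranged from 58.4% for Tbx4 to 72.8% for Gli3.

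The receptor list showed its largest difference outside the 10 genes. Of 5 further receptor and coreceptor genes, each over the floor, 1 was at least 1.5-fold higher in the KO pool and 0 lower. Lrp2, which encodes the endocytic receptor megalin, was 2.73-fold higher (2.53 to 2.96), at 9.86 FPKM in the KO pool and 3.61 FPKM in the control pool. The ligand coreceptor genes Cdon (2.35 FPKM in the KO pool, 2.25 in the control pool) and Boc (7.95 in the KO pool, 8.54 in the control pool) had intervals that held equality. Gas1, the remaining coreceptor of that trio, was 1.26-fold higher (1.12 to 1.42), and Gpc3, a glypican known to compete for the ligand, was 1.43-fold higher (1.36 to 1.5).

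Smo, which encodes the transducer Smoothened, was slightly higher in the KO pool. It had 10.8 FPKM in the KO pool and 9.0 FPKM in the control pool, from about 554 and 593 reads, 1.21-fold higher (1.07 to 1.36) on chromosome 6 from 29685497 to 29711366 (mm9). This was the highest log2 difference among the members over the floor, and it was 0.03 with housekeeping scaling and 0.01 with fibroblast scaling. Ptch1 stood at 0.655 times the level of Smo in the KO pool and 1.1 times in the control pool.

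The 3 GLI genes were the least abundant of the 10. Gli1, a transcriptional activator and a direct readout of the pathway, had 1.53 FPKM in the KO pool and 1.23 FPKM in the control pool, from about 72 and 75 reads. Its fold of 1.24 had a counting interval of 0.884 to 1.74, which holds equality and lies above the fold of 0.72 of Ptch1. Its locus on chromosome 10, from 126766938 to 126778635 (mm9), overlaps the record of Arhgap9, at 9.18 FPKM in the KO pool and 6.71 FPKM in the control pool. The Arhgap9 record ends at 126766999, a short way into that of Gli1. Reads of this short overlap cannot be assigned between them without strand.

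Gli2, the main activator downstream of Smoothened, had 0.79 FPKM in the KO pool and 0.593 FPKM in the control pool, a fold of 1.33 (0.934 to 1.90) on chromosome 1 from 120730638 to 120950196 (mm9). Gli3, which acts mostly as a repressor without ligand, had 0.886 FPKM in the KO pool and 0.629 FPKM in the control pool, a fold of 1.41 (1.04 to 1.90) on chromosome 13 from 15555556 to 15821858 (mm9). All 3 GLI genes were above equality as deposited, as was the median of all genes over the floor, at 0.05. With housekeeping scaling the log2 differences of Gli1, Gli2 and Gli3 were 0.04, 0.07 and 0.11. With fibroblast scaling they were 0.03, 0.06 and 0.1. Gli2 and Gli3 had 66 to 96 reads in each pool. At such low values the log2 difference depends on the pseudocount, and that of Gli3 was 0.21 with a pseudocount of 1 and 0.44 with 0.1.

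As a list, the 5 Hedgehog members that passed the floor had a median log2 difference of 0.09, which was -0.11 with housekeeping scaling and -0.13 with fibroblast scaling. The same scalings shifted all genes alike, to a median of -0.15 and -0.17 against 0.05, and the list remained within 0.1 of it. Of 36 further pathway genes, 32 were over the floor, 1 at least 1.5-fold higher and 2 lower, beside 9.41% and 4.63% of all genes. Their median was -0.06, and 0.02 with a floor of 5 FPKM. The lower count was 3 with a pseudocount of 0.1 and with median ratio or upper quartile scaling, 4 with housekeeping or fibroblast scaling and 0 with a pseudocount of 3, while 1 was higher under each of these. The cilium-linked transducers had 0 of 9 past 1.5-fold in either direction, with values between -0.32 for Evc and 0.27 for Tulp3. Among 13 regulators of GLI proteins 1 was counted as lower, the kinase gene Dyrk2 at 1.58-fold (1.32 to 1.88). The kinase gene Stk36 was lower by more as a plain ratio, 1.80-fold (1.43 to 2.29), at 1.58 FPKM in the KO pool and 2.85 FPKM in the control pool, and with its log2(FPKM + 1) difference of -0.58 it fell just short of being counted. Dyrk2 and Stk36 were picked once their values were known. The abundant Spop, of an E3 ligase that acts on GLI proteins, was 1.26-fold lower (1.20 to 1.32), and Sufu, of the main GLI inhibitor and picked in the same way, had 4.72 FPKM in the KO pool and 5.74 FPKM in the control pool.

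Genes described as Hedgehog targets in mesenchyme were more often higher than lower in the KO pool as deposited. Of 16 over the floor, 5 were at least 1.5-fold higher and 2 lower, beside 9.41% and 4.63% of all genes, with a median log2 difference of 0.24. Foxf1a, 1 of the 2 lower, is the floxed gene itself. With Foxf1a left out 5 were higher and 1 lower, and the median was 0.29 over 15 genes. With housekeeping or fibroblast scaling, 2 were higher and 2 lower, and the median was 0.04 and -0.01. Without Foxf1a these scalings gave 2 higher and 1 lower, at medians of 0.07 and 0.02. Jag2, which encodes a Notch ligand, was 2.55-fold higher (2.35 to 2.77), and Ccnd1, the cyclin D1 gene and the most abundant, was 1.76-fold higher (1.7 to 1.83), at 126 FPKM in the KO pool and 71.2 FPKM in the control pool. The other higher ones were Sfrp1, Osr1 and Snai1, at 2.0-fold, 1.83-fold and 1.65-fold higher, and the lower ones were Foxf1a and Prdm1, at 1.80-fold lower (1.46 to 2.22), Sfrp1, Osr1, Snai1 and Prdm1 being picked once their values were known. Several of these genes have inputs other than Hedgehog, and the part of the cell cycle difference in Ccnd1 was not tested.

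Tbx2 was the most abundant of the 10 genes and was lower in the KO pool. It had 56.5 FPKM in the KO pool and 72.4 FPKM in the control pool, from about 2587 and 4271 reads, 1.28-fold lower (1.22 to 1.34). Of the genes over the floor, 11.4% had a lower log2 difference. The record lies on chromosome 11 from 85646117 to 85655450 (mm9).

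Tbx4, 48115 bases farther along chromosome 11 from 85703565 to 85729599 (mm9), was nearly level as deposited. It had 25.4 FPKM in the KO pool and 27.6 FPKM in the control pool, from about 982 and 1374 reads, a fold of 0.921 (0.849 to 1.0). Tbx4 was the only one of the 10 genes with more than 1 transcript record. The longer record, of 3011 bases, had 25.4 FPKM in the KO pool and 26.3 FPKM in the control pool. The shorter, of 2961 bases with a start at 85710267, was listed at 2.18e-05 FPKM in the KO pool and 1.3 FPKM in the control pool, where it made 4.72% of the gene. The records share most of their bases and the value of each depends on how the authors' quantifier divided shared reads, and whether isoform use differed was not tested. On the longer record alone the log2 difference was -0.05. That of the gene was -0.11 as deposited, -0.34 with housekeeping scaling and -0.36 with fibroblast scaling. Both scaled values lay outside its counting interval of -0.23 to 0.0.

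Tbx5 was slightly above equality. It had 11.6 FPKM in the KO pool and 10.4 FPKM in the control pool, from about 588 and 682 reads, a fold of 1.11 (0.995 to 1.24) on chromosome 5 from 120284672 to 120335227 (mm9). Its log2 difference of 0.14 became -0.07 with housekeeping scaling and -0.09 with fibroblast scaling. The counting intervals of the folds of Tbx2 and Tbx5 did not overlap. Tbx2 stood at 4.87 times the level of Tbx5 in the KO pool and 6.93 times in the control pool.

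Of 14 further T-box genes, 4 were over the floor, and these lay below equality. Of the 4, 0 were at least 1.5-fold higher and 1 lower, beside 9.41% and 4.63% of all genes, with a median log2 difference of -0.38. The lower count was 2 with housekeeping or fibroblast scaling and on the most abundant transcript only, at medians of -0.59, -0.6 and -0.45. With no floor, the median over the 14 genes was 0.0, with 10 of them under the floor and 3 at 0 in both pools. Tbx3, the closest relative of Tbx2 and the neighbour of Tbx5 on chromosome 5, was 1.40-fold lower (1.31 to 1.5), at 21.3 FPKM in the KO pool and 29.7 FPKM in the control pool. Tbx2 kept 2.66 times the level of Tbx3 in the KO pool and 2.43 times in the control pool. Mga, which encodes a large MAX-binding T-box protein, was 1.29-fold lower (1.19 to 1.43). Tbx1 had 3.88 FPKM in the KO pool and 4.79 FPKM in the control pool, with an interval that held equality. Tbx6 was 3.19-fold lower (1.74 to 5.88) on about 15 reads in the KO pool and 60 in the control pool, and it was not counted as lower with a floor of 5 FPKM, a pseudocount of 3 or a 2-fold threshold. Taking members and relatives as 1 list of 7 genes over the floor, 6 lay below equality and Tbx5 alone above it. The median of all genes over the floor was 0.05. The share of them below equality was not computed, so the count does not set this list apart. With housekeeping or fibroblast scaling Tbx5 was negative, at -0.07 and -0.09, but the median of all genes was then -0.15 and -0.17.

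Of the 10 T-box genes under the floor, Tbx10, Tbx20 and Tbx22 were listed at 0 in both pools. T, Tbr1, Tbx15, Tbx18 and Tbx19 were at or below 0.114 FPKM in each. The lymphocyte T-box genes were low, as Tbx21 had 0.703 FPKM in the KO pool and 0.785 in the control pool and Eomes had 0.162 in the KO pool and 0.546 in the control pool. Heart tissue is another known source of Tbx5. Of 14 cardiomyocyte markers 9 were under the floor, and 2 were listed at 0 in both pools, Nkx2-5 among them. The 5 over the floor summed to 36.9 FPKM in the KO pool and 22.4 FPKM in the control pool. Of them 3 were at least 1.5-fold higher and 0 lower, beside 9.41% and 4.63% of all genes, with a median log2 difference of 0.68. Actc1, a cardiac actin gene, had 26.1 FPKM in the KO pool and 15.9 FPKM in the control pool, Myl7 was 2.97-fold higher (1.57 to 5.61), and Tnni3 had 1.32 FPKM in the KO pool and 2.24 FPKM in the control pool with an interval that held equality. With housekeeping or fibroblast scaling 2 were higher and 1 lower, and the part of these markers in the values of Tbx5 was not tested. No airway cartilage marker of 11 reached the floor.

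Genes known to act downstream of or with T-box factors showed no common direction. Of 12 over the floor among 18, 2 were at least 1.5-fold higher and 1 lower, beside 9.41% and 4.63% of all genes. The median of -0.17 stayed negative under each alternative. The lower count was 2 with a pseudocount of 0.1 and with median ratio, upper quartile, housekeeping or fibroblast scaling. Signals downstream of Tbx4 and Tbx5 had a median of -0.22 over 5 genes. Of these, Wnt2b was 2.52-fold lower (1.64 to 3.95), at 0.629 FPKM in the KO pool and 1.59 FPKM in the control pool, and Fgf10, the growth factor gene of lung branching, had 4.6 FPKM in the KO pool and 5.95 FPKM in the control pool. Wnt2 was instead 1.40-fold higher (1.12 to 1.73), Fgf10 and Wnt2 being picked once their values were known. Of the cell cycle inhibitor genes repressed by Tbx2 and Tbx3, 3 were over the floor. Cdkn1a had 59.2 FPKM in the KO pool and 56.1 FPKM in the control pool. Cdkn1b had 23.5 FPKM in the KO pool and 35.4 FPKM in the control pool, 1.5-fold lower as a plain ratio (1.37 to 1.65) and just short of being counted at a log2(FPKM + 1) difference of -0.57. The largest difference was Gja5, a connexin gene known as a Tbx5 target in heart and also expressed in arteries, at 2.66-fold higher (2.41 to 2.95).

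**Figure D3:**
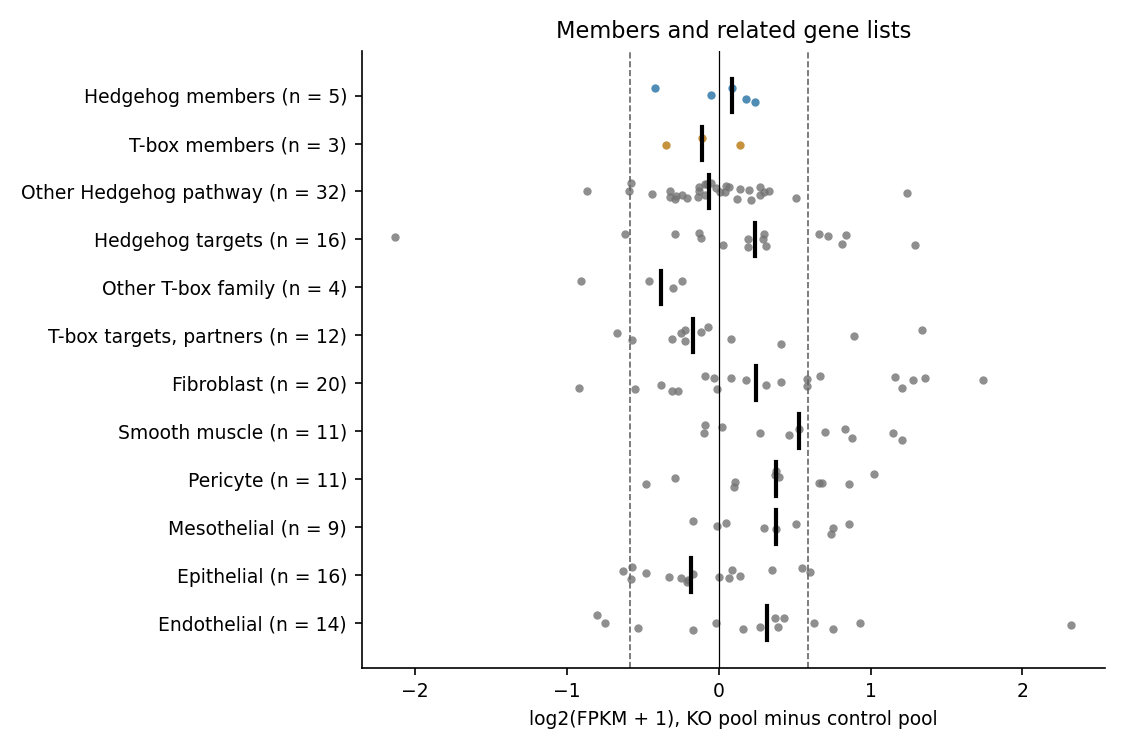
Each point is a gene with a mean of 1 FPKM or more, placed by its log2(FPKM + 1) difference (KO pool minus control pool), and the black bar is the median of its list. The Hedgehog and T-box members lie between the dashed 1.5-fold lines, while the medians of the mesenchymal marker lists lie to the right of 0 as deposited, that of fibroblasts at 0.24 (0.02 with housekeeping scaling).

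Markers of the cells that carry most of these genes were not level between the pools as deposited. Fibroblast markers had a median log2 difference of 0.24, with 6 of 20 at least 1.5-fold higher and 1 lower, beside 9.41% and 4.63% of all genes, and summed to 2900 FPKM in the KO pool and 2490 FPKM in the control pool. The markers moved in both directions. The matrix genes Fn1 and Mfap4 were 3.38-fold and 2.32-fold higher, while the methyltransferase gene Inmt, the most abundant of the list, was 1.90-fold lower (1.85 to 1.95), at 626 FPKM in the KO pool and 1190 FPKM in the control pool. The fibroblast transcription factor gene Tcf21, picked once its values were known, had 55.9 FPKM in the KO pool and 59.6 FPKM in the control pool. A pseudocount of 0.1 gave 8 higher and 2 lower fibroblast markers, and housekeeping scaling gave 5 and 3, with a median of 0.02. Housekeeping genes themselves had a median of 0.23.

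The counts of the next 4 marker lists stand beside 9.41% of all genes higher and 4.63% lower. Smooth muscle markers had a median of 0.53, with 5 of 11 over the floor higher and 0 lower. They summed to 495 FPKM in the KO pool and 273 FPKM in the control pool. With housekeeping scaling 4 were higher and 0 lower, at a median of 0.30, and with fibroblast scaling 3 and 0, at 0.28. Pericyte markers had a median of 0.38, with 4 of 11 higher and 0 lower, which became 2 higher and 1 lower at a median of 0.16 with housekeeping scaling. The potassium channel gene Kcnj8, the lowest of the pericyte list, was 1.58-fold lower as a plain ratio (1.16 to 2.20) and not counted. Mesothelial markers had a median of 0.38, with 3 of 9 higher and 0 lower, which became 1 higher and 0 lower at 0.15 with housekeeping scaling. Endothelial markers had a median of 0.32, with 4 of 14 higher and 2 lower, and this balance turned to 2 higher and 3 lower with housekeeping scaling (median 0.09) and with fibroblast scaling (median 0.07). The endothelial genes ran from Cldn5, a tight junction gene 1.75-fold lower (1.67 to 1.83), to Emcn, a sialomucin gene 5.11-fold higher (4.71 to 5.55). The part of these markers in the values of the 10 genes was not tested. With all values expressed relative to the median fibroblast marker, Ptch1 and Tbx2 were past 1.5-fold lower, at log2 differences of -0.64 and -0.60. That scaling divided all KO values by 1.19, close to the 1.18 of housekeeping scaling, and moved the median of all genes to -0.17.

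**Figure D4:**
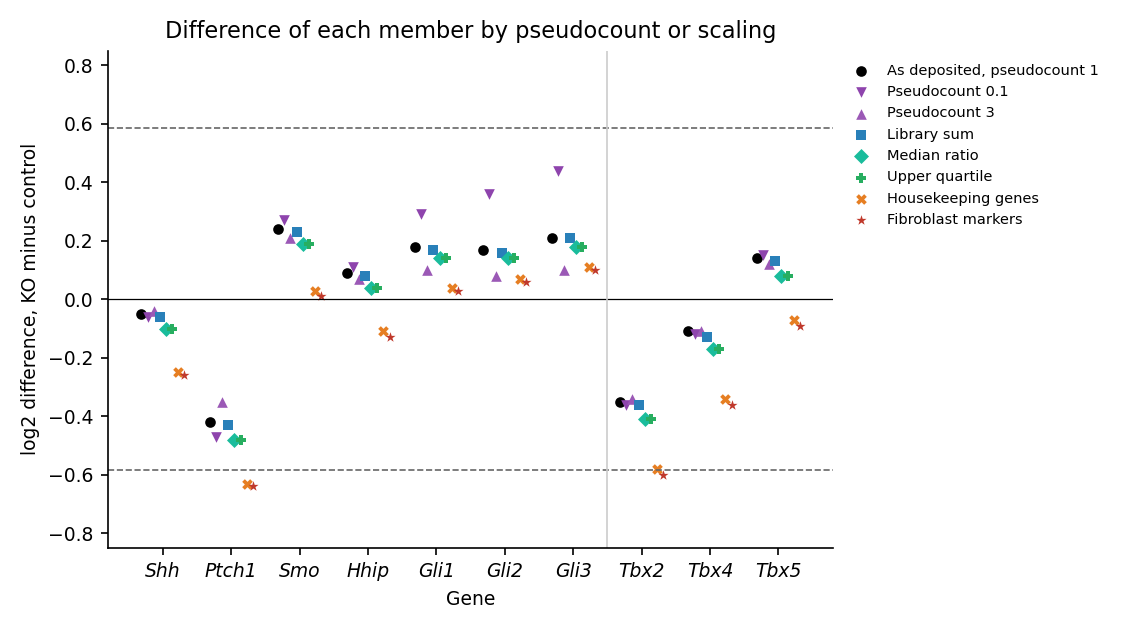
Log2 difference of each gene (KO pool minus control pool) under 8 choices of pseudocount or library scaling, given by marker shape. Ptch1 and Tbx2 stay negative throughout and pass the dashed 1.5-fold line with fibroblast scaling (-0.64 and -0.60), where Hhip and Tbx5 are negative too.

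Chromosomal neighbours of the 10 genes differed by 1.5-fold about as often as genes in general. The nearest 2 genes on each side and any overlapping record gave 38 neighbours, of which 26 were over the floor, 2 at least 1.5-fold higher and 2 lower, near the 14.0% of all genes past that fold in either direction. Brip1, a DNA helicase gene beyond Tbx4, was 2.80-fold higher (2.07 to 3.83), and Ralb, a small GTPase gene near Gli2, was 1.60-fold higher (1.47 to 1.74). Tcfcp2l1, a transcription factor gene on the other side of Gli2, was 1.63-fold lower (1.47 to 1.81), and Mir3074-1 rested on about 3 reads in the KO pool and 6 in the control pool. Bcas3, on the side of Tbx2 away from Tbx4 and picked once its values were known, had 6.6 FPKM in the KO pool and 8.47 FPKM in the control pool. Shh overlapped 9530036O11Rik, at 0.499 FPKM in the KO pool and 0.743 FPKM in the control pool.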

How the data were processed

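The authors deposited FPKM values and coverage (aligned bases over each base of a transcript, proportional to FPKM in each file) for 28107 transcript records per library, per the file headers. Per the submitters' processing notes the build was mm9, and DESeq is listed there with no role. The aligner and quantifier were not given in the sources used here. Strand use is not stated. Starts are counted from 1. FPKM was summed by gene symbol (22072 genes), and differences used a pseudocount of 1, a floor of a mean of 1 FPKM and a threshold of 1.5-fold. Reads were estimated as coverage times length divided by the bases that 1 read adds, 47.3 in the KO library and 47.2 in the control library, taken from genes with very few reads. Ratio intervals are exact conditional (Clopper-Pearson) and level intervals exact Poisson, at 95%, for counting error only. A transcript of 2000 bases with 10 reads has 0.389 FPKM in the KO library and 0.302 FPKM in the control library. The interval code was tested on simulated data. The genes that could be named from each of 14 lists were those of highest and lowest difference and the 2 of highest level, with all ligands, receptors and T-box genes and the neighbours past 1.5-fold. No gene was named for likeness of pattern, since 2 libraries give 1 difference per gene. All 219 list symbols were found, 1 through a synonym, and 1 further gene is not reported here. The members and lists were chosen with earlier results of these data known. Promoters came from RefSeq (GRCm38.p6). Python 3.11.15 with pandas 2.3.3 and scipy 1.17.1 was used.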

Additional observations from a re-analysis of the deposited data

How the results depend on the processing

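No paired analysis was possible because each genotype is 1 pooled library. Alternatives were a pseudocount of 0.1 or 3, a floor of 5 FPKM or none, 5 scalings of the libraries, the most abundant transcript only, records with status OK in both libraries only, and a threshold of 2-fold. The count of members at least 1.5-fold lower was 0 except with housekeeping scaling (1, Ptch1) and fibroblast scaling (2, Ptch1 and Tbx2). The median log2 difference of the Hedgehog members was -0.11 with housekeeping and -0.13 with fibroblast scaling, against 0.09 as reported, and that of the T-box members -0.34 and -0.36, against -0.11. These scalings divided the KO values by 1.18 and 1.19, while library sum, median ratio and upper quartile scaling divided them by 1.01, 1.04 and 1.04. As deposited, 4 of the 15 housekeeping genes were at least 1.5-fold higher in the KO pool and 0 lower. No member was at least 1.5-fold higher under any alternative run. Of 90 recomputed member differences, 77 stayed within their counting interval and 13 moved outside it. Of the 13, 12 came with housekeeping or fibroblast scaling and 1 was Gli3 with a pseudocount of 0.1. The intervals were computed with a pseudocount of 1, so that Gli3 value was set against an interval on another scale. Depth limits the GLI genes most, at 66 to 96 reads each.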
